A study of Mus musculus with 6 samples.

Results

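The genes described here are 10 components and readouts of the hypoxia-inducible factor (HIF) system, measured by RNA-seq in mouse AE9a leukemia cells from 2 regions of the bone marrow. They are the subunits Hif1a, Epas1 and Arnt, the ubiquitin ligase subunit Vhl, the prolyl hydroxylases Egln1, Egln2 and Egln3, the asparaginyl hydroxylase Hif1an, and the target genes Vegfa and Ankrd37. Coordinates are on mm10 (GRCm38). The genes were chosen by symbol for their role, and each symbol matched 1 row among the 54532 genes of the count table. Of these 10 genes, 9 were counted deeply enough to be among the 13352 genes tested, and Epas1 was not.

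HIF is a dimer of an oxygen-labile alpha subunit, encoded among these genes by Hif1a or Epas1, and a stable beta subunit encoded by Arnt. When oxygen is present, the EGLN enzymes hydroxylate prolines of the alpha subunit, which the VHL protein then recognizes for destruction by the proteasome, while HIF1AN hydroxylates an asparagine and blocks the binding of coactivators. This control acts on the protein, so that the mRNA of Hif1a does not report HIF activity, whereas Vegfa, Egln1, Egln3 and Ankrd37 are among the genes that HIF is known to switch on in hypoxic cells.

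AE9a is the alternatively spliced form of the AML1-ETO fusion found in t(8;21) acute myeloid leukemia, and all 6 libraries came from AE9a leukemia of C57BL/6 mice, in which retrovirally transduced hematopoietic progenitors had been passed through serial transplantation. The libraries of central bone marrow (CBM, n = 3) were from cells flushed out of the bones. The libraries of endosteal bone marrow (EBM, n = 3) were from cells released afterwards by collagenase from the same kind of bone, and cells of both regions were kept in serum-containing medium around sorting. Because only EBM cells met collagenase, the region and the digestion cannot be told apart. Neither the number of mice behind a library nor whether libraries with the same number came from 1 mouse is stated, so p-values measure the spread between these libraries, which may be technical in part. The study compared the regions to ask how leukemia cells at the endosteum, considered a hypoxic niche, differ from those in the central marrow.

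Counts on genes ranged from 16436526 to 19462964 per library, and levels are given as CPM, a count scaled to equal library size and by the TMM factors of edgeR, on which 3 counts are worth 0.149 to 0.193. CBM 2 and EBM 3 stood apart from the other libraries on the first principal component of all tested genes, which held 53.0% of the variance and placed them at -42.9 and -46.0, against -5.81 to 38.5 for the other 4. In these 2 libraries the mast cell genes Cpa3 (3.74 and 5.20 CPM, 44.3 to 224 elsewhere) and Fcer1a (4.26 and 3.47 CPM, 17.6 to 106 elsewhere) were low. Ms4a2 was lower there too (652 and 782 CPM, 932 to 1051 elsewhere). Thus 3 of the 4 tested mast cell and basophil genes had their 2 lowest libraries in CBM 2 and EBM 3. Gata2, the other tested gene, was highest of all libraries in EBM 3 (1174 CPM). Mcpt8, with 42 counts in all libraries, was highest in CBM 2 and EBM 3 (1.21 and 0.514 CPM). The 6 listed genes, mostly Gata2 and Ms4a2 by level, summed to 1361 CPM in CBM 2 and 1966 CPM in EBM 3, against 1899 to 2351 CPM elsewhere. The listed globin and erythroid genes summed to 5644 CPM in CBM 2 and 4020 CPM in EBM 3, above the 2169 to 3546 CPM of the others. However, Hbb-bs was lowest in EBM 3 (807 CPM), where Hbb-bt (73.1 CPM) was also below EBM 1 and EBM 2. The listed macrophage and osteoclast genes summed to 548 and 569 CPM in CBM 2 and EBM 3, against 263 to 370 CPM elsewhere. Nearly all of this was Acp5 (540 and 565 CPM), while Cd68 was lowest in EBM 3 (3.47 CPM). The progenitor genes Kit (196 to 239 CPM) and Myb (268 to 352 CPM) were high in every library, and the pan-leukocyte gene Ptprc was at 0.10 to 3.58 CPM. The progenitor gene Cd34 was at 1.16 and 1.22 CPM in CBM 2 and EBM 3 and at 4.86 to 16.4 CPM elsewhere. The listed neutrophil genes summed to 7.39 to 246 CPM in CBM and 41.3 to 211 CPM in EBM, and the lymphoid genes to at most 8.84 CPM in any library. Of the 11 listed osteoblast and stromal genes, 3 (Bglap2, Sp7 and Alpl) were at 0 counts, Runx2 was at 6.62 to 11.8 CPM, and the other 7 had 3 to 26 counts each in all libraries together. Among these, Spp1 (24 counts) was at 0.193 to 0.501 CPM in EBM and 0 to 0.158 CPM in CBM. The lowest EBM library (EBM 3) and the highest CBM library (CBM 2) both had 3 counts of Spp1. Their order in CPM thus rests on the scaling of library size alone. In bulk samples such as these, fewer cells of a type and less RNA per cell cannot be told apart.

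The 250 bases upstream of a RefSeq transcript start are shown for the 4 genes with their 2 lowest libraries in CBM 2 and EBM 3 (Hif1a, Egln1, Egln3 and Vegfa) and for Ankrd37, the 1 gene whose libraries separated by region. The sequences are from RefSeq for GRCm38.p6 and are written 5′ to 3′ on the strand of the gene. The Hif1a and Ankrd37 windows lie inside the gene spans of the count table, which begin at other annotated starts further upstream. Capitals mark the core of the hypoxia response element, searched as ACGTG or GCGTG on both strands.
Hif1a, chr12:73907617-73907866, plus strand: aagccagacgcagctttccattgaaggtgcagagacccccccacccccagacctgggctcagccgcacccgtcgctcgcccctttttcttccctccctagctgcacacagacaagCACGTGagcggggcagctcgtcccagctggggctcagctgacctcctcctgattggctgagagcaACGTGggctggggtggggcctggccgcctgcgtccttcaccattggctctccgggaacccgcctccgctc
Egln1, chr8:124949255-124949504, minus strand: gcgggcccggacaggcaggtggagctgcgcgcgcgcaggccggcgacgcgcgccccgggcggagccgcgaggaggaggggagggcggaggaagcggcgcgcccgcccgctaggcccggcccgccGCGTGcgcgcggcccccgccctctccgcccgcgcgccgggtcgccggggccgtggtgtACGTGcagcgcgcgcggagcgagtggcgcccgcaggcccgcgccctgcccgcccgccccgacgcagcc
Egln3, chr12:54203875-54204124, minus strand: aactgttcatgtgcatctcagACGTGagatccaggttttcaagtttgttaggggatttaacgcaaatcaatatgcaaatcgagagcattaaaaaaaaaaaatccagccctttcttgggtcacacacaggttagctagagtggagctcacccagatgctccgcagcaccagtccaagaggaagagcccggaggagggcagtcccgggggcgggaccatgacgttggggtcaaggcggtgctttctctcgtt
Vegfa, chr17:46032378-46032627, minus strand: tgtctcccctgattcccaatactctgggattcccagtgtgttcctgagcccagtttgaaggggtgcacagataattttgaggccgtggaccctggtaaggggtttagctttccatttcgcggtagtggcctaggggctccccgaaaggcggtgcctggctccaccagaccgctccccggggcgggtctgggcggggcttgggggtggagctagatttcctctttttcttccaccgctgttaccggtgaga
Ankrd37, chr8:45999851-46000100, minus strand: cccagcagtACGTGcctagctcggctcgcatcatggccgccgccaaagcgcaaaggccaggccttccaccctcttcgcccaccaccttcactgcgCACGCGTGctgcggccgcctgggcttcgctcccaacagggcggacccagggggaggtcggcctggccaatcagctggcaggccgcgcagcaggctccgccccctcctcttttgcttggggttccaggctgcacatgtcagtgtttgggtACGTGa

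ACGTG was present in 16.6%, GCGTG in 28.2% and either of them in 38.6% of all 32851 windows of this length, so that single matches are common. The Ankrd37 window held 4 matches between 241 and 6 bases upstream, of which one pair overlaps, and 2.58% of all windows held as many or more. Egln2 had a window with the same number of matches. The Hif1a window held 3 matches, where a palindromic CACGTG counts once on each strand, and 6.58% of windows held as many or more. Egln1 had 2 matches, Egln3 and Arnt had 1 each, and Vhl, Hif1an and the Vegfa window shown had none of these letters. A second Vegfa window, at a start site inside the gene, held 2. A match is a run of letters in this window and not evidence of binding, and its absence says nothing of sequence outside the window. For the Hif1a window and the second Vegfa window, the bases after the start were not found in GENCODE M21 transcripts of the gene. Epas1 is not among the windows.

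Of the alpha subunits among the 10 genes, Hif1a mRNA was abundant and Epas1 mRNA nearly absent in both regions. A further alpha subunit gene, Hif3a, listed below with the partners, was at 47.5 to 64.7 CPM over the 6 libraries. Hif1a (ENSMUSG00000021109, chr12:73901375-73947530, plus strand) was at 75.9, 50.4 and 67.6 CPM in CBM 1 to 3 and at 74.8, 75.8 and 66.8 CPM in EBM 1 to 3. The regions overlapped, and CBM 2 was the only library under 60 CPM. The mean and SD over the 3 libraries were 64.6 ± 13.0 CPM for CBM and 72.5 ± 4.96 CPM for EBM. The log2 fold change of EBM over CBM was 0.17 with a standard error of 0.16 and a 95% interval of -0.21 to 0.54 (adjusted p = 0.901 by the quasi-likelihood test of edgeR, with Benjamini-Hochberg adjustment over all 13352 genes). The interval therefore runs from 0.862-fold to 1.46-fold. Hif1a shares 5.60% of its exonic bases with the antisense gene Gm15283 (402 counts in all libraries), and the sources used here do not say whether counting used the strand.

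Epas1 (ENSMUSG00000024140, chr17:86753907-86833410, plus strand), which encodes HIF-2 alpha, had 0, 1 and 0 counts in CBM 1 to 3 and 4, 3 and 0 counts in EBM 1 to 3. The sums were 1 count in CBM (95% exact Poisson interval 0.0253 to 5.57) and 7 counts in EBM (2.81 to 14.4). These intervals cover counting error only. They overlap, but overlap of separate intervals is not a test of a difference. Epas1 was not among the genes tested, so whether the regions differ was not tested. Over all libraries the 7410 counts of Hif1a stood against 8 of Epas1, a ratio of 834 per gene length (423 to 1933).

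Arnt, the shared beta subunit, did not pass the test between the regions. Arnt (ENSMUSG00000015522, chr3:95434388-95497240, plus strand) was at 53.5, 73.9 and 59.3 CPM in CBM and at 59.9, 58.8 and 65.4 CPM in EBM. Its 2 highest libraries were CBM 2 and EBM 3, the libraries lowest in Vegfa. The log2 fold change was -0.02 (SE 0.14, 95% interval -0.35 to 0.31, edgeR adjusted p = 0.992). As a ratio per gene length, Hif1a was 1.93, 0.926 and 1.55 times Arnt in CBM and 1.70, 1.75 and 1.39 times Arnt in EBM. Only in CBM 2 was the alpha subunit below its partner. The log2 ratio was 0.19 higher in EBM, which the exact permutation test did not separate (two-sided p = 0.8, where the 20 relabellings of 3 against 3 libraries cannot give less than 0.1).

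The hydroxylases fell into an abundant pair and a scarce pair. Egln2 (ENSMUSG00000058709, chr7:27158658-27166802, minus strand), which encodes PHD1, was at 50.0, 53.2 and 51.6 CPM in CBM and at 47.8, 41.1 and 53.5 CPM in EBM, and its regions overlapped. Its log2 fold change was -0.12 (SE 0.12, 95% interval -0.40 to 0.16, edgeR adjusted p = 0.905). Hif1an (ENSMUSG00000036450, chr19:44562850-44576274, plus strand), which encodes the factor inhibiting HIF, was at 66.8, 60.4 and 58.3 CPM in CBM and at 74.7, 68.0 and 55.6 CPM in EBM. EBM held both its highest and its lowest library. Its log2 fold change was 0.10 (SE 0.13, 95% interval -0.21 to 0.41, edgeR adjusted p = 0.946).

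Egln1 and Egln3 were far less abundant and differed among libraries of the same region. Egln1 (ENSMUSG00000031987, chr8:124908587-124949324, minus strand) encodes PHD2, the main oxygen sensor of most cells. It had 72, 21 and 46 counts in CBM and 74, 52 and 25 counts in EBM, or 4.10, 1.11 and 2.28 CPM against 4.09, 2.89 and 1.61 CPM. Replicate 1 of both regions was near 4.1 CPM, and the lowest libraries were CBM 2 and EBM 3. The log2 fold change was 0.21 (SE 0.53, 95% interval -1.06 to 1.47, edgeR adjusted p = 0.983). Egln3 (ENSMUSG00000035105, chr12:54178981-54203860, minus strand), which encodes the strongly hypoxia-inducible PHD3, had 67, 10 and 31 counts in CBM and 49, 75 and 3 counts in EBM. These were 3.81, 0.526 and 1.54 CPM against 2.70, 4.18 and 0.193 CPM, so that the lowest libraries were again CBM 2 and EBM 3, and EBM 3 was at the floor of 3 counts. Its log2 fold change was 0.28 (SE 0.98, 95% interval -2.05 to 2.61, edgeR adjusted p = 0.986).

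Egln2 supplied most of the prolyl hydroxylase mRNA. Per gene length it held between 86.1% and 97.4% of the summed level of Egln1, Egln2 and Egln3, against 1.58% to 5.91% for Egln1 and 0.369% to 9.19% for Egln3. The Egln2 share was highest in CBM 2 (97.4%) and EBM 3 (97.4%). The log2 ratios of Egln1 to Egln2 (0.42 higher in EBM, p = 0.6) and of Egln3 to Egln2 (-0.04, p = 1) did not separate the regions by the exact permutation test, and all 6 ratios tested had an adjusted p of 1. Egln1 relative to Hif1a gave a log2 difference of 0.11 (exact permutation p = 0.7).

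Vhl (ENSMUSG00000033933, chr6:113623959-113631633, plus strand), the substrate-recognition subunit of the ligase, was at 32.0, 28.7 and 32.8 CPM in CBM and at 34.1, 31.0 and 41.9 CPM in EBM. EBM 3 was the highest and the other 5 libraries lay within 28.7 to 34.1 CPM. The log2 fold change was 0.19 (SE 0.14, 95% interval -0.15 to 0.53, edgeR adjusted p = 0.827).

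Vegfa, the angiogenic ligand, varied more between libraries of a region than between the regions. Vegfa (ENSMUSG00000023951, chr17:46016993-46032369, minus strand) was at 55.0, 11.3 and 29.0 CPM in CBM and at 56.0, 42.0 and 9.32 CPM in EBM. CBM 1 and EBM 1 were alike and high, and CBM 2 and EBM 3 were alike and low. The highest library was 4.86 times the lowest within CBM and 6.01 times within EBM, while the regions differed by 1.13-fold with a 95% interval of 0.338-fold to 3.76-fold. On the log2 scale the difference was 0.17 (SE 0.73, edgeR adjusted p = 0.989). Per gene length Vegfa was 0.997, 0.309 and 0.591 times Hif1a in CBM and 1.03, 0.763 and 0.192 times Hif1a in EBM (exact permutation p = 1). Taken within replicate numbers, which may or may not be shared mice, EBM minus CBM was 0.02, 1.88 and -1.63 log2 CPM for Vegfa and -0.48, 2.75 and -2.44 for Egln3.

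Ankrd37 was the only one of the 10 whose regions did not overlap. Ankrd37 (ENSMUSG00000050914, chr8:45996902-46005707, minus strand) encodes an ankyrin-repeat protein and is a HIF target in many cell types. It had 62, 71 and 89 counts in CBM and 54, 51 and 36 counts in EBM, or 3.53, 3.74 and 4.42 CPM against 2.98, 2.84 and 2.31 CPM. Every EBM library lay below every CBM library, with means of 3.89 ± 0.464 and 2.71 ± 0.352 CPM (SD, n = 3). The log2 fold change was -0.52 (SE 0.21, 95% interval -1.03 to -0.01), and edgeR gave a p of 0.0464 before and 0.621 after adjustment, so it was not called. Its exact permutation p was 0.1, the smallest possible. By the GENCODE M21 annotation 22.7% of its exonic bases are shared with Lrp2bp (41 counts in all libraries) and 3.70% with Ufsp2 (5443 counts, log2 fold change 0.04), both on the opposite strand.

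**Figure D1:**
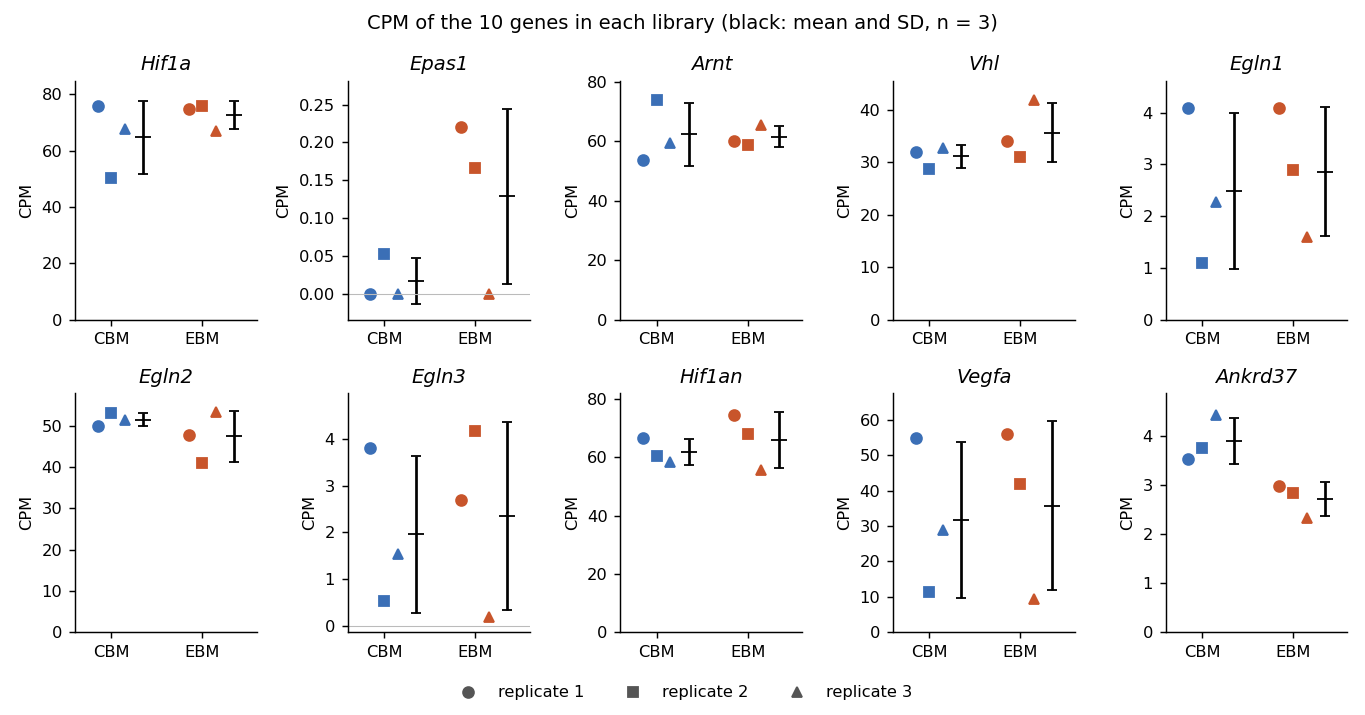
Each panel plots the CPM of 1 gene in CBM 1 to 3 and EBM 1 to 3 (marker shape is the replicate number), with the mean and SD of each region in black (n = 3) and an axis that includes 0. Vegfa, Egln1 and Egln3 spread widely within both regions, and the EBM libraries of Ankrd37 (2.31 to 2.98 CPM) all lie below those of CBM (3.53 to 4.42 CPM).

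Read against all genes, the 10 were not set apart by region. By edgeR's quasi-likelihood test 0 of the 9 tested genes passed an adjusted p of 0.05, as did 0% of all 13352 tested genes, with 0.0583 as the smallest adjusted p. Before adjustment 1 of 9, Ankrd37, had a p under 0.05, beside 7.91% of all tested genes, or 3.9% when only genes lower in EBM are counted. Non-overlapping regions were seen in 1 of 9, beside 15.1% of all tested genes. DESeq2 called 0 of the 9 beside 1.43% of the 12280 genes it gave an adjusted p, with 0.801 for Ankrd37 and 0.999 for each of the other 8. The median log2 fold change of the 9 was 0.17, with 6 higher and 3 lower in EBM, beside 0.00 over all tested genes, of which 50.4% were higher. The precision differed greatly among them. The intervals of Hif1a, Arnt, Vhl, Egln2 and Hif1an stayed within 0.756-fold and 1.46-fold, whereas those of Egln1 (0.481-fold to 2.77-fold), Vegfa and Egln3 (0.242-fold to 6.12-fold) include both large increases and large decreases.

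**Figure D2:**
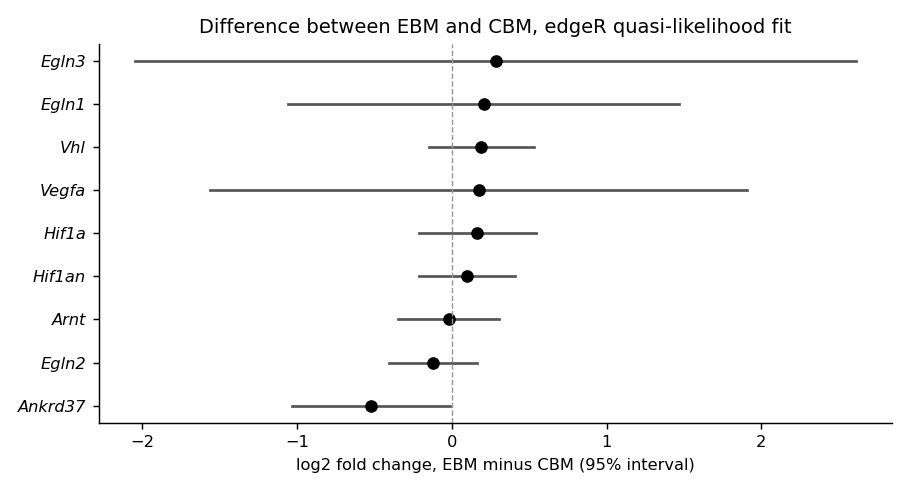
The horizontal axis is the log2 fold change of EBM over CBM for the 9 tested genes, with the point at the edgeR estimate and the bar its 95% interval. The interval of Ankrd37 (-1.03 to -0.01) lies just below 0 before adjustment for the number of genes, and the intervals of the other 8 include 0.

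Per gene length (RPKM, the CPM divided by the gene length in kilobases), the order of the mean level over the 6 libraries was Egln2 17.7, Hif1a 11.6, Vhl 11.1, Hif1an 9.68, Vegfa 7.88, Arnt 7.72, Ankrd37 2.15, Egln3 0.811, Egln1 0.745 and Epas1 0.0138. Egln2 was above Hif1a, Arnt above Ankrd37 and Egln1 above Epas1 with no overlap between their 6 libraries. The other neighbours in this order overlapped. Hif1a exceeded Vhl in 4 of 6 libraries, Vegfa exceeded Arnt in 3 of 6 and Egln3 exceeded Egln1 in 2 of 6. Egln2 was above 74.5% of all tested genes in mean RPKM and Hif1a above 63.9%, whereas Egln3 and Egln1 were above 14.5% and 13.7%.

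**Figure D3:**
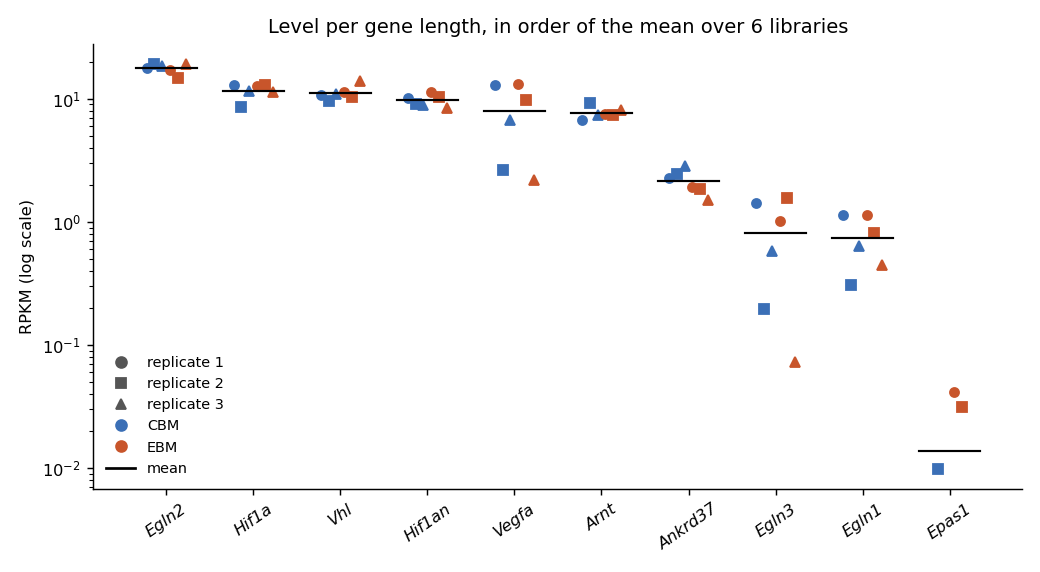
The vertical axis is RPKM on a log scale for the 10 genes in order of their mean (black line), with 1 point per library. The 3 libraries with 0 counts of Epas1 cannot be drawn on this scale. Egln2 is highest in level, and the points of Egln3 span 0.072 to 1.57 RPKM.

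Vegfa, Egln3 and Egln1 were among the most variable genes within regions. The SD of log2 CPM within a region was 1.72 for Egln3, 1.27 for Vegfa and 0.784 for Egln1, larger than in 99.2%, 97.6% and 92.9% of all tested genes, whose median was 0.222. Among genes of a like abundance (within 0.5 of the mean log2 CPM) these shares were 97.8% of 1112 genes for Egln3, 98.7% of 2038 for Vegfa and 87.1% of 1028 for Egln1. The other 6 lay between 26.2% (Egln2) and 50.8% (Hif1a) of all tested genes. Among genes of like abundance their shares were 74.5% for Hif1a, 61.5% for Arnt, 58.0% for Hif1an, 50.2% for Vhl, 41.1% for Egln2 and 11.1% for Ankrd37.

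The variation had 1 pattern, chosen for description after the values were seen. CBM 2 and EBM 3 were the 2 lowest libraries for Hif1a, Egln1, Egln3 and Vegfa, 4 of the 9 tested genes, beside 16.7% of all tested genes. They were the 2 highest for Arnt and Egln2, beside 15.6% of all tested genes. Some of these ranks rest on small differences. Hif1a was at 66.8 CPM in EBM 3 and 67.6 CPM in CBM 3. Egln2 was at 53.2 CPM in CBM 2 and 53.5 CPM in EBM 3, against 51.6 CPM in CBM 3. The 2 libraries come from opposite regions. They are those with low Cpa3, Fcer1a, Ms4a2 and Cd34, high Acp5 and a high sum of erythroid genes. Gata2, Hbb-bs, Hbb-bt and Cd68 were exceptions in EBM 3, and Mcpt8 was an exception in both. The part of cell composition in this pattern was not tested. With both libraries left out, an alternative chosen after seeing the data, edgeR gave log2 fold changes of 0.22 for Vegfa, 0.37 for Egln3, 0.13 for Egln1, 0.07 for Hif1a, 0.07 for Arnt and -0.45 for Ankrd37, with adjusted p between 0.685 and 0.955 for these 6 genes, and 0 of the 9 genes were called.

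**Figure D4:**
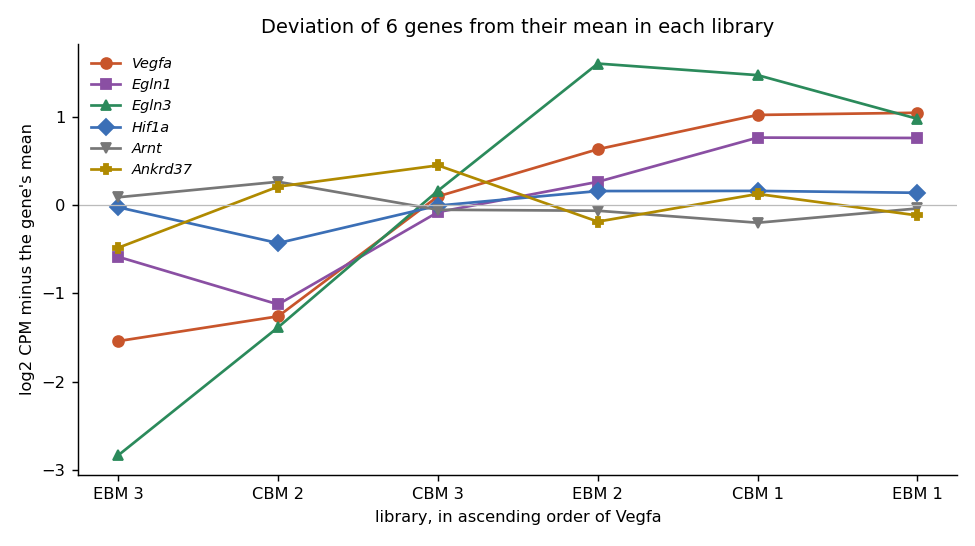
The vertical axis is log2 CPM minus the mean of the gene over the 6 libraries, and the horizontal axis lists the libraries in ascending order of Vegfa. Egln3 and Egln1 are lowest in EBM 3 and CBM 2 on the left and higher in EBM 2, CBM 1 and EBM 1 on the right, where Egln3 peaks at EBM 2, Hif1a follows with a smaller range, and Arnt and Ankrd37 stay within 0.5 of their means.

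The genes most like Vegfa over the 6 libraries, by Pearson's r of log2 CPM, were Nek6 (r = 0.999), Nol4l (0.999) and Krt7 (0.999). Nek6, a kinase of mitosis, was at 56.6, 6.95 and 27.2 CPM in CBM and at 57.0, 39.1 and 5.59 CPM in EBM. With 6 libraries that share this split, such values are common, since 1115 tested genes had an r over 0.9 with Vegfa. For Hif1a the closest genes were Gm25821 (r = 0.995), Gm31897 (0.992) and Tmem35a (0.992), among 355 genes over 0.9. Gm25821 (0.211 to 0.835 CPM), Gm31897 (0 to 0.740 CPM) and Krt7 (0.129 to 0.740 CPM) were poorly counted, so their r rests on few counts. These correlations describe the 6 libraries and were not tested.

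The genes that act on or with HIF did not pass the test between the regions. Of 8 partners and coactivators, 7 were tested, 3 of them higher and 4 lower in EBM. Their median log2 fold change was -0.13. Cited4, a transcriptional coregulator that binds CBP and p300, was at 151, 114 and 149 CPM in CBM and at 108, 100 and 97.3 CPM in EBM, which is -0.44 on the log2 scale (edgeR adjusted p = 0.434, from 0.0117 unadjusted). The acetyltransferase Ep300 (-0.17) and the inhibitory alpha subunit Hif3a (-0.13) were lower, and Crebbp (0.10), Ncoa1 (0.14) and Ncoa3 (0.09) were higher, each with an adjusted p of 0.718 or more. Arnt2 was at 0 counts.

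All 14 listed genes of the VHL ligase and of HIF stability were tested, 9 of them higher and 5 lower in EBM, around a median of 0.01. Rbx1, the RING subunit of the ligase, was at 71.4, 73.9 and 71.9 CPM in CBM and at 93.2, 82.9 and 92.4 CPM in EBM, so that the lowest EBM library exceeded the highest of CBM. Its log2 fold change was 0.31 (edgeR adjusted p = 0.423, from 0.0103 unadjusted). Siah2 (0.30), a ligase for the EGLN enzymes, and Rack1 (0.19) were higher, and the scaffold Cul2 (-0.18), Siah1a (-0.32) and Ube2d1 (-0.32) were lower, with adjusted p of 0.686 or more. The adaptors Elob and Eloc both gave 0.01. The 8 other oxygen-dependent dioxygenases, among them the histone demethylases Kdm5a and Kdm6a and the cysteamine dioxygenase Ado, lay between -0.08 and 0.08, with 4 higher and 4 lower.

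The listed HIF target genes were also examined, since mRNA of the subunits does not report the activity of the factor. Of 27 targets outside glycolysis (Vegfa, Ankrd37, Egln1 and Egln3 not among them), 18 were tested and 4, including Epo and Adm, were at 0 counts. Of the 18, 11 were higher and 7 lower in EBM, their median log2 fold change was 0.048, and 0 passed an adjusted p of 0.05 by edgeR. The study chose the mTOR inhibitor Ddit4 from these samples, so its values here are no independent evidence. By qRT-PCR and at the protein level, the study also reported higher DDIT4 in EBM than in CBM cells. In these libraries Ddit4 was at 43.0, 32.5 and 36.1 CPM in CBM and at 57.4, 57.1 and 51.6 CPM in EBM. Its log2 fold change was 0.57 (unadjusted p = 0.00332, adjusted p = 0.304 by edgeR, adjusted p = 0.0357 by DESeq2). It was the 1 gene of the 18 with an unadjusted edgeR p under 0.05, beside 7.91% of all tested genes. It was also the 1 that DESeq2 called, beside 1.43% of the genes given an adjusted p. Ddit4 responds to other stress signals as well as to HIF. Ero1a (0.32) and P4ha1 (0.27) were higher, and Hmox1 (-0.68), Bnip3l (-0.07) and Stc2 (-0.48) were lower, each with an adjusted p of 0.639 or more by edgeR.

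The libraries differed more than the regions in the glycolytic targets. All 21 were tested, 16 were higher and 5 lower in EBM, and the median log2 fold change was 0.11. By edgeR 0 had an unadjusted p under 0.05, beside 7.91% of all tested genes. The direction of the median rested on single libraries, being -0.11 without CBM 2, -0.059 without EBM 1 and 0.30 without CBM 1. Non-overlapping regions were seen in 0 of 21, beside 15.1% of all tested genes. CBM 2 and EBM 3 were the 2 lowest libraries in 17 of the 21 genes, beside 8 of the 18 targets outside glycolysis and 16.7% of all tested genes. Hexokinase Hk2, which had the smallest p among the higher genes, was at 84.6, 34.3 and 64.3 CPM in CBM and at 111, 86.5 and 54.2 CPM in EBM (log2 fold change 0.46, adjusted p = 0.856). Gpi1 (0.18) and Tpi1 (0.23) were next by p. Slc2a1 (-0.31), Pgam1 (-0.12) and Gapdh (-0.91) were lower. Gapdh was at 109, 31.9 and 30.8 CPM in CBM 1 to 3 and at 22.7, 42.9 and 25.3 CPM in EBM 1 to 3, so that CBM 1 alone was high. Its level is also uncertain because it has many near-identical pseudogenes, whose part was not tested.

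**Figure D5:**
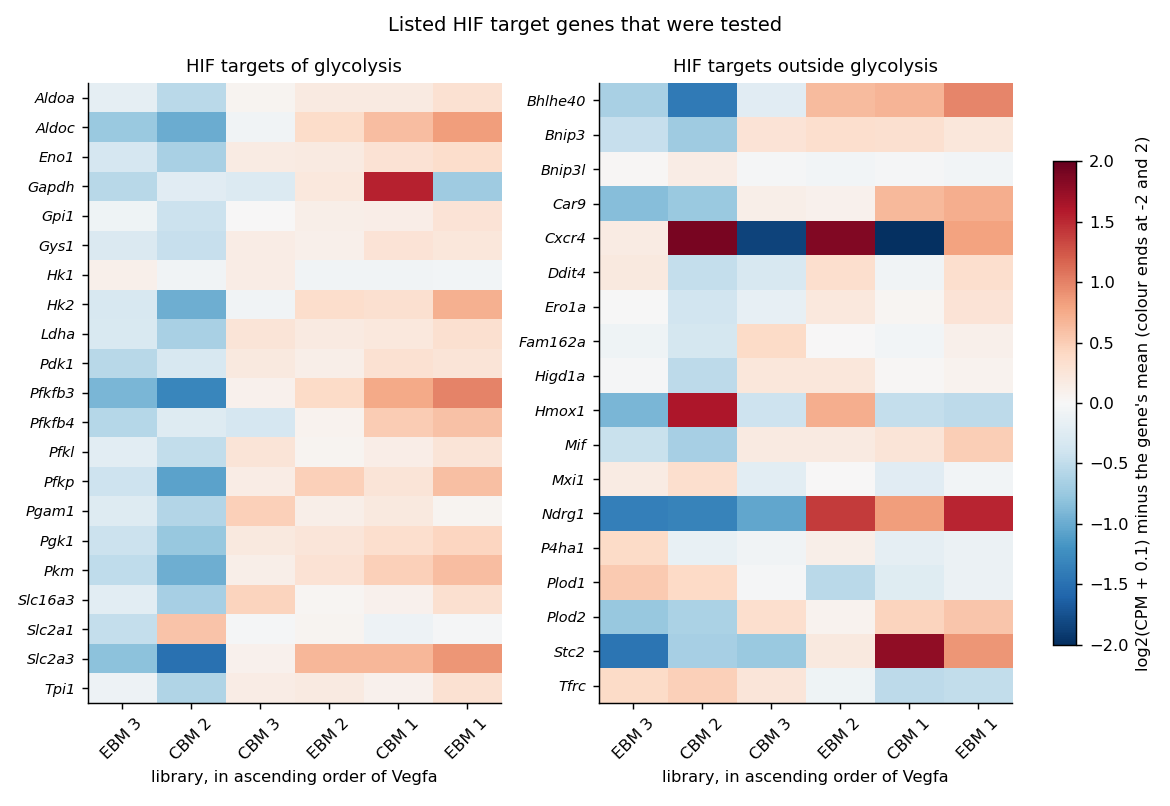
Colour gives log2(CPM + 0.1) minus the mean of each gene for the 21 glycolytic targets and the 18 tested targets outside glycolysis, with columns in ascending order of Vegfa and colours ending at -2 and 2. In the glycolytic panel the columns EBM 3 and CBM 2 are blue for most genes, and in the other panel Ddit4 is higher in all 3 EBM libraries than in any of CBM.

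Of the VEGF ligands and receptors besides Vegfa, only Vegfb and the receptor Kdr were counted deeply enough to test. Vegfb was at 13.9 ± 1.05 CPM in CBM against 13.4 ± 3.12 CPM for EBM (SD, n = 3), with a log2 fold change of -0.06. Kdr, with 163 counts in all libraries, was at 1.75 ± 0.176 and 1.21 ± 0.447 CPM (log2 fold change -0.51, adjusted p = 0.796 by edgeR). Its regions did not overlap, beside 15.1% of all tested genes, and CBM 3 (1.64 CPM) and EBM 1 (1.55 CPM) lay close. Of the others, Vegfd and Flt4 were at 0 counts, Vegfc had 2 counts and Flt1 had 3 in all libraries together. Pgf, the best counted of those not tested (61 counts), was at 0.512, 0.211 and 0.149 CPM in CBM and at 0.994, 1.28 and 0.257 CPM in EBM, with overlapping regions. Nrp1 had 11 counts and Nrp2 had 7. Of the other endothelial markers, Egfl7 was at 78.1 to 98.1 CPM in every library, Pecam1 had 58 counts, Tek 18, Cdh5 5 and Tie1 3, and Emcn had 0.

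Immediate early genes, which respond to handling and to enzymatic release of cells, lay on balance higher in EBM, the digested cells. Among the 16 listed, 11 lay higher and 5 lower in EBM around a median log2 difference of 0.51. With 1 library left out, this median ran from 0.30 without CBM 3 to 0.76 without CBM 1. The summed CPM of the 16 overlapped between the regions. It was lowest in CBM 3 (4520), while CBM 1 (11709) was above EBM 2 (9763) and EBM 3 (10602). Before adjustment, edgeR gave a p under 0.05 for 5 of the 16, beside 7.91% of all tested genes. Of these 5, Jund (0.51), Egr2 (1.96), Nr4a1 (2.89) and Nfkbia (0.76) were higher and Dusp1 (-1.13) was lower. Fos (-1.31), Ier3 (-0.16), Jun (-0.10) and Zfp36 (-0.02) were lower as well. By edgeR 0 of 16 passed after adjustment. DESeq2 called 1, Dusp1, beside 1.43% of the genes it gave an adjusted p. The part of handling and digestion in the values of Ddit4 and Ankrd37 was not tested.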

How the data were processed

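RNA was measured in 6 libraries, 3 from CBM and 3 from EBM. According to the study's methods the RNA was depleted of rRNA (the labels say mRNA) and made into directional paired-end libraries. The submitters' processing notes name HISAT2 2.0.5 and mm10, while the counting tool and its use of strand are not given in the sources used here. The authors deposited raw counts per gene for 54532 genes with gene lengths, and no normalization was applied to them. Of the identifiers shared with GENCODE M21, 98.3% had the same coordinates, as had 9 of the 10 genes.

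Counts were filtered with filterByExpr and scaled by TMM (factors 0.948 to 1.04) in edgeR 4.0.16, and tested with its quasi-likelihood test in R 4.3.3 without a replicate block, after the unpaired test of the study. Benjamini-Hochberg adjustment was over all 13352 genes at a threshold of 0.05. The fit had 2.81 prior degrees of freedom and a common dispersion of 0.0617. The standard error is the absolute log2 fold change divided by the square root of F. CPM and RPKM use TMM-scaled library sizes, and log2 CPM a prior count of 2. Between-gene ratios were compared by two-sided exact permutation over 20 relabellings, with 0.5 counts added for Epas1. Alternatives were DESeq2 1.42.0, limma-voom (limma 3.58.1), other size factors and filters, thinning, the replicate block and each library left out. Replicates of a region differed beyond sampling noise (chi-square per degree of freedom of 11.9 or more). The model was tested on simulated data.

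The genes described and the lists were chosen with earlier results of these data known. Named were all 10 genes, the 3 higher and 3 lower genes of each pathway list that had the smallest p, and the 3 genes most like Hif1a and Vegfa. Others were chosen after their values were seen. One gene of the lists is not reported here and was left out of their counts. Precision is limited by 3 libraries per region and by counting error at low counts.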

Additional observations from a re-analysis of the deposited data

How the results depend on the processing

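None of the 9 tested genes was called under any of the 15 alternatives. The number of genes called over the whole table was 0 by edgeR, 176 by DESeq2, 40 with no filter on low counts and 13 with CBM 2 and EBM 3 left out, the last of these chosen after seeing the data. Ankrd37 stayed lower in EBM in all 15 alternatives, with log2 fold changes from -0.59 to -0.42 and adjusted p of 0.567 or more, but 0 of the 9 genes had an unadjusted p under 0.05 in 10 of them. Hif1a ranged from 0.02 to 0.30, and Vhl and Egln2 also kept their direction. The sign of the others changed with single libraries. Leaving out 1 library at a time gave log2 fold changes from -0.12 to 0.12 for Arnt, -0.15 to 0.76 for Egln1, -0.41 to 1.19 for Egln3, -0.00037 to 0.20 for Hif1an and -0.30 to 0.83 for Vegfa. The sign of Vegfa turned without CBM 2 (-0.23) and without EBM 1 (-0.30). Arnt was at 0.072 with CBM 2 and EBM 3 left out, Egln3 was at -0.020 by limma-voom, and the log2 ratio of Egln3 to Egln2 was 0.051 after thinning to the smallest library. Leaving out 1 library at a time also turned the sign of the log2 ratios of Hif1a to Arnt (-0.11 to 0.42), Egln1 to Egln2 (-0.092 to 0.90), Egln3 to Egln2 (-0.98 to 1.42), Egln1 to Hif1a (-0.21 to 0.44) and Vegfa to Hif1a (-0.57 to 0.64), but not that of Hif1a to Epas1. The cause of these changes was not tested. Deviations of libraries with the same replicate number correlated at 0.68, -0.20 and 0.20, so the numbers were not taken to pair the libraries. With a replicate block 0 genes were called, and Vegfa was at 0.10 and Ankrd37 at -0.52. At 3 to 75 counts per library, Egln3 is limited by counting error as well as by the spread between libraries. Epas1 was counted too low for the main test.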
